A study of Saccharomyces cerevisiae with 12 samples.

Results

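Ty1 is an LTR retrotransposon of Saccharomyces cerevisiae, and 4 of its annotated reading frames are described here: YBL005W-B, YHR214C-B, YMR045C and YDR034C-A. The members were the probe sets of the array whose only gene symbol is 1 of these 4 names, which gave 10 of 9275 yeast probe sets for 4 of the 5656 genes that are the only symbol of a probe set. YBL005W-B was the only symbol of probe set 3512_f_at, YHR214C-B of 3180_f_at and YMR045C of 3714_f_at, whereas YDR034C-A was the only symbol of 7 probe sets. The names of the first 3 probe sets all end in _f_at, and no probe sequences were used. A signal under a frame's name therefore cannot be assigned to that 1 copy of the element. The frames were chosen by their measured signals on these arrays, without the contrast being named; it was taken to be the difference between the strains, so levels in the 2 strains are given below as a description, with no test. Tests were made on the effect of the culture medium and on its dependence on strain.

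A Ty1 element carries a long terminal repeat (LTR) at each end and encodes Gag, the structural protein of virus-like particles, and Pol, which holds protease, integrase, reverse transcriptase and RNase H and is made as a Gag-Pol fusion through a programmed ribosomal frameshift. Its RNA is packaged with Gag, copied into DNA and inserted mainly beside genes transcribed by RNA polymerase III, and a repeat left alone after recombination between the 2 ends is a solo LTR. Yeast strains differ in how many elements they carry and where, and the copies of a family are close to one another in sequence. YBL005W-B, YHR214C-B and YMR045C are Gag-Pol frames. YDR034C-A is a short frame lying within a solo Ty1 LTR and encodes neither Gag nor Pol, so the label of Ty1 reading frame applies to it by position only.

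RNA was taken from M25, a wild-type strain of the University of Sassari culture collection, and from EC1118, a commercial wine strain from Lallemand, and was measured on 1-colour Affymetrix arrays. Both were precultured for 24 h and then inoculated at 1000000 cells/ml and harvested at 60 h. The medium was a lipid-free synthetic juice (SJ, glucose 200 g/l, pH 3.3) or its lipid-fortified form (FSJ), in which ergosterol was present at 15 mg/l and oleic acid at 15 mg/l. Each of the 4 groups (M25 in SJ, M25 in FSJ, EC1118 in SJ, EC1118 in FSJ) had 3 biological replicates, and the labels name no genetic modification. Neither the ploidy, the mating type nor the Ty content of the strains is given in the labels.

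The 12 arrays had background levels (the 25th percentile of an array's signals) between 16.6 and 21.7 and trimmed mean signals between 300.2 and 300.3, and arrays of a group correlated at r = 0.919 or more. The lowest correlations were those within EC1118 in FSJ, at 0.919, 0.944 and 0.962, against 0.970 or more within the other groups. EC1118 in FSJ replicate 2 had the lowest signal of the spiked control BioD, 432, against 999.7 to 1446 on the other 11 arrays. EC1118 in FSJ replicate 3 stood apart in its Ty1 signals. It was the lowest of its 3 replicates for all 3 Gag-Pol members and for 29 of 29 other probe sets with Ty1 names only, compared with 29.1% of 6385 probe sets of the whole array, each counted among probe sets above background on all 6 EC1118 arrays. The same count was 27 of 28 for probe sets naming Ty1 and Ty2, 8 of 13 for those with Ty2 names only, where replicate 1 was the lowest in the other 5, and 1 of 3 for YDR034C-A. Its ACT1 3′ to 5′ signal ratio, a sign of RNA quality, was 1.41, and the other 11 arrays had 1.21 to 1.62. The cause of its low Ty1 signals was not tested. Medium differences of the members in EC1118 are therefore given with and without this array.

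The 3 Gag-Pol members were dark in M25 and bright in EC1118, in both media. In M25 they did not exceed the background on any of the 6 arrays, and in EC1118 they exceeded it on all 6. The same held for 1 of the 7 probe sets of YDR034C-A. Over these 4 probe sets the M25 signals ran from 1 to 16.5 and the EC1118 signals from 105.6 to 800.8. Of the 7349 probe sets kept for testing (above background on at least 3 of the 12 arrays), 67 had this pattern, a share of 0.912%; since the choice of the frames used this contrast, nothing is read from the members' count. A probe set under background in M25 has only a lower bound for its fold, taken as the geometric mean in EC1118 over that of the M25 arrays, each M25 signal raised to its array's background.

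**Figure D1:**
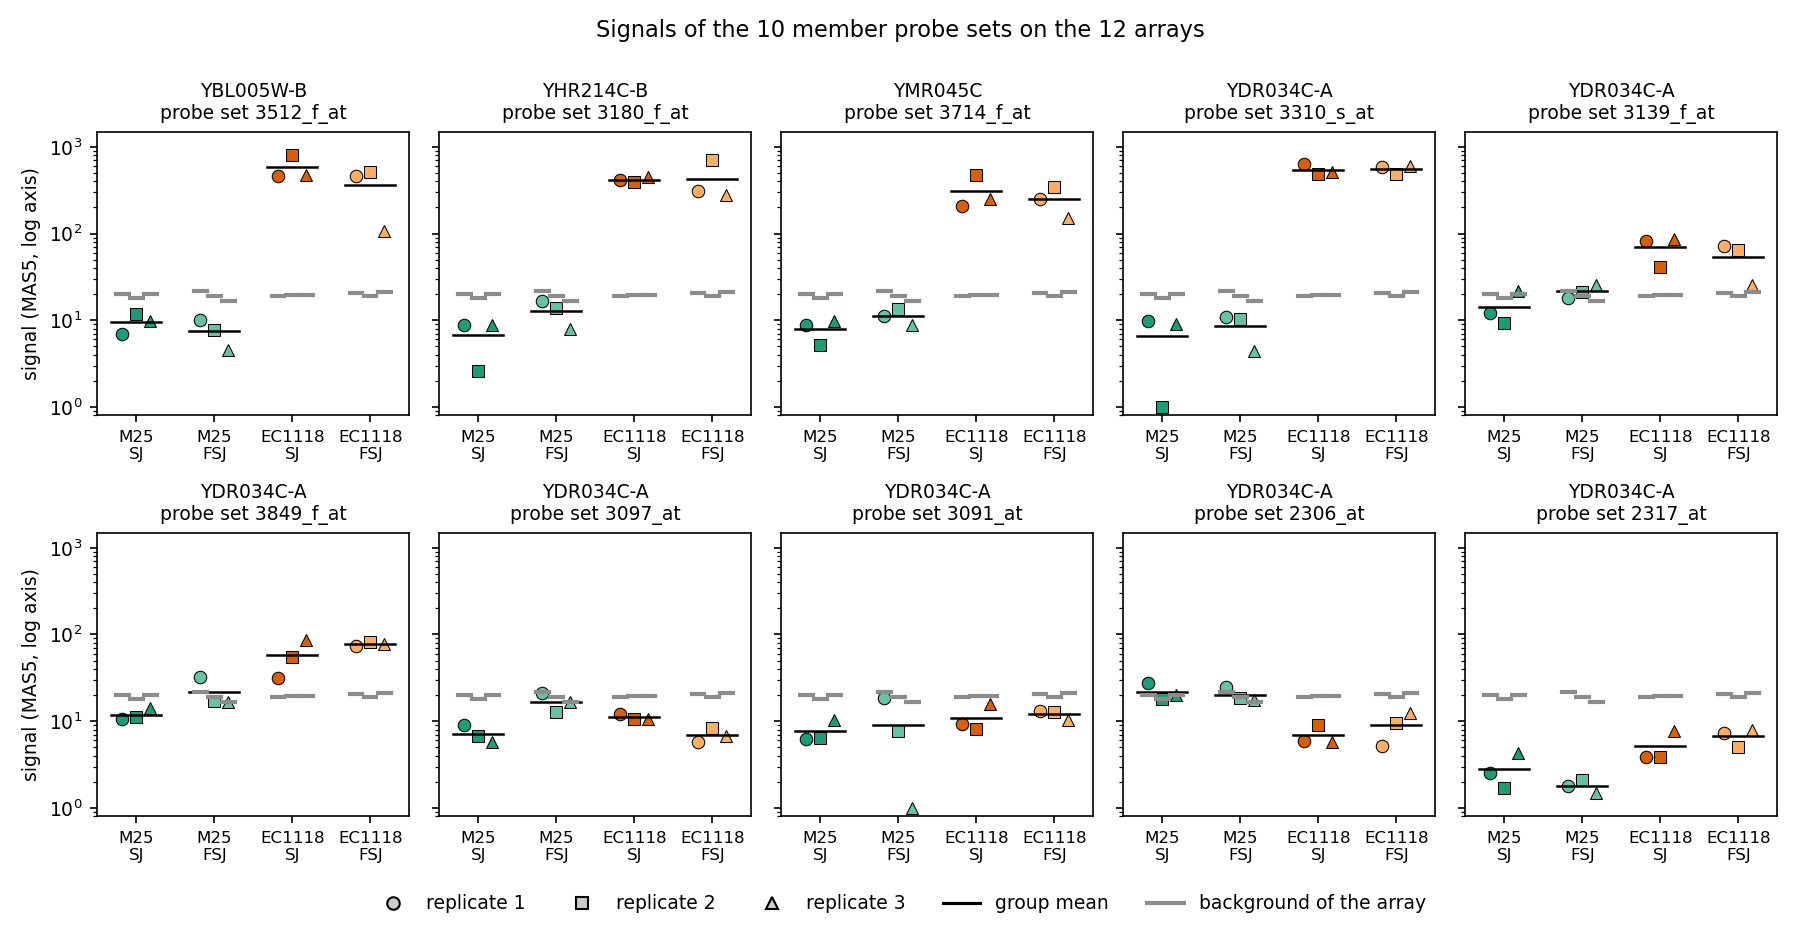
Signal of each of the 10 member probe sets on the 12 arrays (log axis), by group; points are single arrays shaped by replicate, black lines are group means and grey bars the background of each array. YBL005W-B, YHR214C-B, YMR045C and 3310_s_at of YDR034C-A lie below every M25 background bar in M25 and above 105 in EC1118, while the other probe sets of YDR034C-A stay close to or below the background in M25 and below 90 in EC1118.

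YBL005W-B, whose element lies between PDR3 and a tRNA gene in the reference annotation, had M25 signals of 6.9, 11.7 and 9.9 in SJ and of 10, 7.8 and 4.5 in FSJ. In EC1118 they were 466, 800.8 and 479.3 in SJ and 466.2, 512.1 and 105.6 in FSJ. The strains did not overlap, and within EC1118 FSJ replicate 3 was far below the other 5. M25 averaged 9.5 ± 2.42 in SJ and 7.43 ± 2.77 in FSJ, and EC1118 averaged 582 ± 190 and 361 ± 223 (SD, n = 3 each), so EC1118 was at least 29.0-fold higher in SJ and at least 15.4-fold higher in FSJ.

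YHR214C-B, the Gag-Pol frame of the element that also holds the Gag frame YHR214C-C, gave 8.7, 2.6 and 8.8 in M25 in SJ and 16.5, 13.9 and 7.9 in FSJ. The EC1118 arrays read 419.5, 396.3 and 444.2 in SJ and 308.8, 701.3 and 279.3 in FSJ. The 3 SJ arrays of EC1118 were close together, while the FSJ arrays spread to both sides of them. The M25 means were 6.70 ± 3.55 and 12.8 ± 4.41, and those of EC1118 420.0 ± 24.0 and 429.8 ± 236 (SJ and FSJ, SD, n = 3), at least 21.6-fold higher in SJ and at least 20.7-fold higher in FSJ.

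YMR045C, which neighbours the chromatin gene IOC4, read 8.8, 5.2 and 9.8 in M25 in SJ and 11.3, 13.5 and 8.9 in FSJ. In EC1118 it read 206.7, 473.7 and 250.6 in SJ and 251.8, 344.1 and 149.7 in FSJ. Again no M25 array came near an EC1118 array, and in both media the second EC1118 replicate was the brightest. Its M25 means were 7.93 ± 2.42 and 11.2 ± 2.30, and its EC1118 means 310 ± 143 and 249 ± 97.2 (SJ and FSJ, SD, n = 3), giving at least 14.9-fold in SJ and at least 12.4-fold in FSJ.

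The probe sets of YDR034C-A, which lies between a pair of tRNA genes in the reference annotation, did not move as 1 gene. Probe set 3310_s_at had M25 signals of 9.7, 1 and 9.1 in SJ and 11, 10.2 and 4.4 in FSJ, and EC1118 signals of 634.4, 488.1 and 516.9 in SJ and 582.3, 485.1 and 598.3 in FSJ. It was at least 27.9-fold higher in EC1118 in SJ and at least 29.1-fold in FSJ, and of the 4 strain-separated probe sets it alone had EC1118 in FSJ replicate 3 as the highest of the 3 FSJ arrays. Probe set 3139_f_at was dim in both strains, at 9.2 to 25.2 in M25 and 25.8 to 86.8 in EC1118, and was over background in M25 on 1 of 3 arrays in SJ and 2 of 3 in FSJ. EC1118 was 4.92-fold higher in SJ and 2.30-fold higher in FSJ, with the M25 signals taken as they are; raised to background, the SJ difference fell from 2.30 to 1.73 on the log2 scale. Its strains were separated only by the step from 25.2 to 25.8.

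For 3849_f_at the strains overlapped, with 10.6 to 32 in M25 and 31.7 to 87.2 in EC1118. It was under background on all 3 M25 arrays in SJ, where EC1118 was at least 2.75-fold higher, and above it on 1 of 3 in FSJ, where EC1118 was 3.74-fold higher. Probe set 2306_at ran the other way, at 17.4 to 27.3 in M25, above background on 4 of 6 arrays, and at 5.2 to 12.5 in EC1118, under background on all 6. With signals raised to background its EC1118 over M25 difference was -0.15 on the log2 scale in SJ and 0.013 in FSJ, so that the direction was kept in SJ only. The remaining probe sets of YDR034C-A (3097_at, 3091_at and 2317_at) were under background on all 12 arrays, between 1 and 21.1, and were not tested. The probe sets of this frame over background in EC1118 were thus only those whose names end in _s_at or _f_at. In total 7 of the 10 member probe sets passed the filter on low signals, 3 of them in Gag-Pol frames and 4 in YDR034C-A.

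Among the 7 kept, all 6 EC1118 arrays were above all 6 M25 arrays in 5, where 10.6% of the 7349 probe sets had that order. The reverse held in 1 (2306_at), where 7.62% had it. The frames were taken to be chosen by this contrast, and 4 of the 7 were over background on EC1118 arrays only. Nothing is therefore read from these counts. In all, 2883 probe sets, 39.2%, differed between the strains averaged over the media by limma's moderated test at an adjusted p of 0.05 (Benjamini-Hochberg over 7349 probe sets). The arrays' probe sets carry the names of the reference strain's frames. Less RNA from an element, fewer or no copies of it, and copies whose sequence differs from the probes cannot be told apart in these data.

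Supplying ergosterol and oleic acid was not called for any member. In EC1118, 0 of the 7 kept probe sets passed limma's test at an adjusted p of 0.05, and 0 had an unadjusted p under 0.05. Of all probe sets 1.85% were called in this comparison, and 15.8% had an unadjusted p under 0.05. The largest fitted difference was that of YBL005W-B, with FSJ over SJ at -0.94 on the log2 scale (SE 0.53, limma adjusted p = 0.410, 95% interval -2.09 to 0.21). Without EC1118 in FSJ replicate 3 it was -0.21 (limma adjusted p = 0.836). That array had been singled out as the lowest FSJ array of all 3 Gag-Pol members. Leaving it out was therefore bound to raise their values, here and below. The 95% intervals of all 7 probe sets include 0, and differences within them were not detectable with 3 arrays a group.

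The other Gag-Pol members showed smaller differences. YMR045C gave -0.31 (SE 0.37, limma adjusted p = 0.748), and 0.019 without replicate 3. YHR214C-B gave -0.096 (SE 0.48, limma adjusted p = 0.952), which was -0.51 without FSJ replicate 2 and 0.15 without FSJ replicate 3. For YDR034C-A the value of 3310_s_at was 0.026 (limma adjusted p = 0.989), and -0.031 without replicate 3. That of 3139_f_at was -0.43, and turned to 0.041 without replicate 3. Probe set 3849_f_at gave 0.55 with and without replicate 3, but 0.17 without SJ replicate 1 and 0.90 without SJ replicate 3. Probe set 2306_at, under background on all EC1118 arrays, gave 0.34, and 0.065 without replicate 3. SJ and FSJ arrays of EC1118 overlapped in all 7, while 18.5% of the 7349 probe sets had no overlap.

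**Figure D2:**
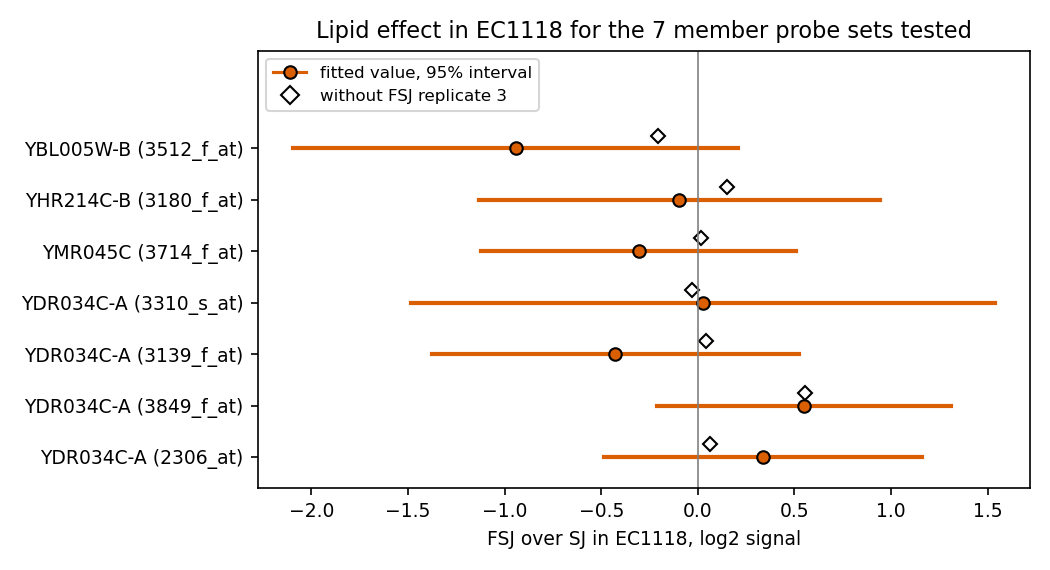
Fitted difference of FSJ over SJ in EC1118 (log2 signal) for the 7 member probe sets tested, with 95% intervals, and the value without FSJ replicate 3 as diamonds. Every interval includes 0, and the YBL005W-B value moves from -0.94 to -0.21 when that array is left out. A rise was bound to follow for the Gag-Pol members, as the array was singled out for its low Ty1 signals.

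In M25, where the Gag-Pol members and 3310_s_at were under background in both media, 0 of 7 probe sets were called, against 8.75% of all probe sets. Against 25.5% of all probe sets, an unadjusted p under 0.05 was found in 2 of the 7. These were YHR214C-B (1.06 on the log2 scale, limma adjusted p = 0.186), which is under background on all 6 arrays, and 3849_f_at (0.82, limma adjusted p = 0.164). In 3849_f_at the 3 FSJ arrays of M25, at 16.6 to 32, were also all above the 3 SJ arrays, at 10.6 to 14.1, an absence of overlap shared by 34.7% of the 7349 probe sets. Averaged over the strains 0 of 7 were called, against 9.09%, with adjusted p-values of 0.111 to 0.851. An unadjusted p under 0.05 was found in 1, against 23.9% of all probe sets. The difference between the strains in the medium effect was called for 0 of 7, against 0.204% of all probe sets, with adjusted p-values of 0.402 to 0.803. Here 0 had an unadjusted p under 0.05, against 15.4% of all probe sets. On simulated data, with changes put into probe sets drawn from all 7349, this last comparison recovered 45% of changes of 1 log2 unit. Of changes of 2 log2 units it recovered 81%. The members' SEs in it were 0.49 to 0.98, and their own recovery was not tested. All M25 signals of the Gag-Pol members and of 3310_s_at, and all EC1118 signals of 2306_at, were under background. For these probe sets the 0 calls in the average and in the strain dependence cannot show whether the medium effect depended on strain.

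Within EC1118 the Gag-Pol members varied from array to array in part together. Over its 6 arrays YBL005W-B and YMR045C had r = 0.849 (Spearman 0.943) in log2 signal, YBL005W-B and YHR214C-B 0.532 (Spearman 0.543), and YHR214C-B and YMR045C 0.531 (Spearman 0.371). Against 3310_s_at of YDR034C-A the same members had r of -0.52, -0.62 and -0.82 for YBL005W-B, YHR214C-B and YMR045C. These are descriptions over 6 arrays that share their scaling, and EC1118 in FSJ replicate 3 is one of the 6.

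The array held 145 other probe sets with Ty names, of which 116 were kept. Those with Ty1 names only split into separate patterns. Of 33 such probe sets 31 were kept, and in 19 of the 33 all EC1118 arrays were above all M25 arrays, while the reverse held in 1. In 10 the M25 arrays were all under background and the EC1118 arrays all over it, as in the Gag-Pol members, and in 15 both strains were over background on every array. The median difference of EC1118 over M25 across the kept ones was 1.84 on the log2 scale, beside 0.045 for all 7349 probe sets. This median joins 2 unlike sets, with signals under background taken as they are. It was 4.42 across the 15 kept that list a Gag-Pol member among their names. Across the 16 that list none it was 0.32, and 10 of those were over background on all arrays. Probe sets that list a member may share its signal, and the members were taken to be chosen by this contrast. The split therefore reuses that choice, and nothing is read from it.

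Among probe sets with several Ty names, 17 list at least 1 of the 3 Gag-Pol members, so they share sequence with the members or with their near copies. Of these, 12 had EC1118 above M25 throughout, 1 had M25 above EC1118 throughout, and in 4 the strains overlapped. These counts reuse the choice of the members in the same way. The fitted EC1118 over M25 differences of the kept ones ran from -0.91 to 11.1 on the log2 scale, with signals under background floored only at 1. Of the 17, 10 were under background on every M25 array. Of these 10, 6 were over background on all EC1118 arrays, as were the Gag-Pol members, and 2 were on none. In 5 of the 17 the signals were over background on all 12 arrays. The bright 5 (3426_f_at, 3587_f_at, 3636_f_at, 3703_f_at and 3774_f_at) each list 18 or 19 names. In 3774_f_at, for example, signals of 806.2 to 1388.5 were read in M25 and of 1529.5 to 2523.5 in EC1118. These family probe sets, which carry a member's name among others, were thus over background in M25 where the probe set with the member's name alone was not. Another 5 probe sets list YDR034C-A with other names, and 3 of them were kept. All EC1118 arrays were above all M25 arrays in 1, and the reverse held in 1. Their fitted EC1118 over M25 differences ran from -2.81 to 1.74 on the log2 scale.

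One probe set, 3835_s_at, has 16 Ty1 names, lists all 3 Gag-Pol members and was picked out after its values were seen. Its M25 signals lay between 0.1 and 5.2 and its EC1118 signals between 2121.8 and 4111.2, at least 164-fold higher in SJ and at least 142-fold higher in FSJ. Its medium difference in EC1118 was -0.24 on the log2 scale (SE 0.50, limma adjusted p = 0.868), and -0.067 without FSJ replicate 3.

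Different probe sets of 1 Ty1 frame also disagreed, as in YDR034C-A. YJR027W, a Ty1 Gag-Pol frame that is no member, was the only name of 3 probe sets, which were likewise picked out after their values were seen. In 3881_f_at M25 was at 8.6 to 21.2 and EC1118 at 77.3 to 235.4. In 3880_f_at M25 was at 733.1 to 1349.1 and EC1118 at 246.8 to 954.2, and in 3882_f_at M25 was at 449 to 999.7 and EC1118 at 326.1 to 664.4. The first separated the strains as the Gag-Pol members did, and the other two were bright in both strains with overlapping ranges.

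Ty2 is a sister family with a Pol region close to that of Ty1. All 28 probe sets that name frames of both families were over background on all 12 arrays, and in 21 of them every M25 array was above every EC1118 array, with a median EC1118 over M25 of -0.61 on the log2 scale. Of 14 probe sets with Ty2 names only, 12 were over background on all arrays and 8 had M25 above EC1118 throughout (median of the 13 kept -0.65). The 4 with the highest mean signal of the 145 were the Ty2 probe sets 3722_s_at, 3719_s_at, 3717_s_at and 3718_s_at, with EC1118 over M25 of -0.27, -0.40, -0.82 and -0.54. No probe set naming a Ty2 frame had all EC1118 arrays above all M25 arrays, the order seen in the 3 Gag-Pol members.

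The 0 calls for the lipids in EC1118 extended to the other 116 Ty probe sets kept, of which none passed the test in that comparison. In 30 of the 31 Ty1-only probe sets, and in 28 of 28 naming Ty1 and Ty2, the fitted FSJ over SJ value in EC1118 was below 0, with medians of -0.28 and -0.27, beside 0.065 for all probe sets. Without EC1118 in FSJ replicate 3 the Ty1-only median was 0.030, with 15 of 31 below 0, and that of the probe sets naming Ty1 and Ty2 was -0.14, with 27 of 28 below 0. The low Ty1-only median in FSJ thus depended on that array. As the array was singled out for its low Ty1 signals, leaving it out was bound to raise that median.

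**Figure D3:**
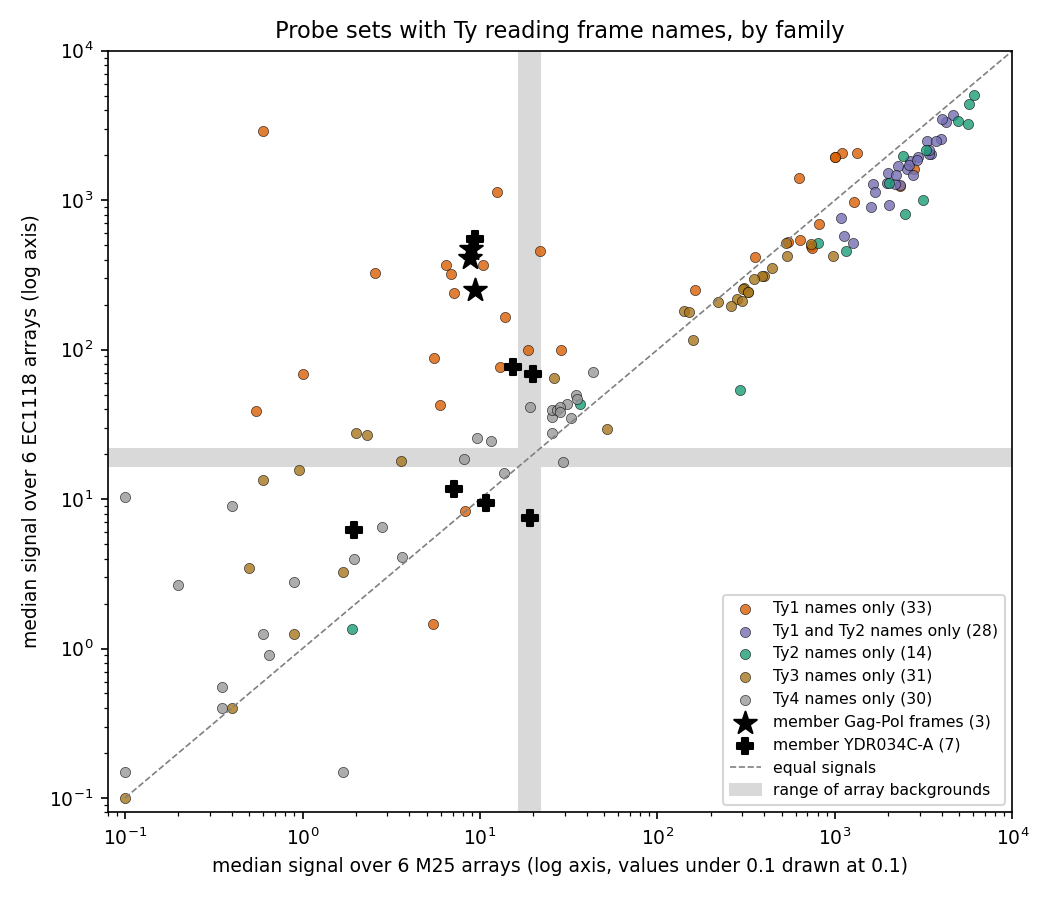
Median signal over the 6 EC1118 arrays against that over the 6 M25 arrays (log axes, values under 0.1 drawn at 0.1) for probe sets with Ty names of 1 family or of Ty1 and Ty2, with the 10 member probe sets in black and the range of array backgrounds in grey. The 3 Gag-Pol members lie with a set of Ty1 probe sets at the upper left, while those naming Ty1 and Ty2 lie at or below the line of equal signals.

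The 3 genes outside Ty with the pattern most like each member were found by the Pearson correlation of log2 signal over the 12 arrays, among 5349 genes. As the arrays form 2 clusters by strain, these values mostly state the strain difference, and they are a description. For YBL005W-B they were PET18 (r = 0.982), YHL048C-A (0.975) and RML2 (0.970), a gene of the mitochondrial ribosome. For YHR214C-B they were PHO5 (0.994), the secreted acid phosphatase, REE1 (0.985) and YJL218W (0.982), and for YMR045C they were YOR385W (0.984), PET18 (0.984) and PHO5 (0.982).

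PET18 and PHO5 differed from the members in that they were not dark in M25 throughout. The M25 signals of PET18 lay between 184.7 and 247.6 and its EC1118 signals between 785.9 and 2096.7, and its lowest EC1118 array was also FSJ replicate 3. PHO5 was over background on 5 of 6 M25 arrays, at 4.3 to 75.1, and stood at 2114.5 to 3224.4 in EC1118. Within the 6 EC1118 arrays PET18 correlated with YBL005W-B at 0.893 and PHO5 with YMR045C at 0.911, while PHO5 with 3310_s_at, which had r = 0.993 over all 12 arrays, was at -0.78. For 3310_s_at the next were REE1 (0.985) and YJL218W (0.981), which were under background on all 6 M25 arrays.

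The less separated probe sets of YDR034C-A had other likenesses. They were TBS1 (0.916), MAS2 (0.914) and SPF1 (0.895) for 3139_f_at, and MAK11 (0.955), YFL051C (0.940) and FIT3 (0.939) for 3849_f_at. For 2306_at they were MFA2 (0.950), which encodes a-factor, BIO4 (0.945) and KDX1 (0.941).

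Transcription of Ty1 depends on Tec1 and Ste12, the factors of invasive growth, and on further activators. The list of 8 such factors was measured in full, and averaged over the media 1 was higher and 3 were lower in EC1118 by limma's test, where 23.6% of 5360 genes were higher and 15.4% lower. The list's median was -0.058 on the log2 scale beside 0.066 for all genes. The strain tests of this and the later lists average the media, and a gene called so was not always called in each medium. GCR1, the activator of glycolytic genes, was higher in EC1118, at 302.5 to 442.3 against 145.7 to 192.9 in M25 (1.16 on the log2 scale, SE 0.12, limma adjusted p = 1e-05).

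TEA1, an activator that binds the Ty1 enhancer, was lower in EC1118 at 156.4 to 248.3 against 267.5 to 452.9 (-0.93, SE 0.11, limma adjusted p = 4.4e-05). RAP1, a general activator of ribosomal protein and glycolytic genes, was lower at 88.5 to 186.6 against 228.6 to 295.8 (-1.09, SE 0.13, limma adjusted p = 5.1e-05). GCN4, the activator of amino acid synthesis, was lower by a small amount (-0.21, limma adjusted p = 0.025), a call lost without any intensity trend in the spread (adjusted p = 0.078). The strains did not overlap in GCR1, TEA1 or RAP1, and overlapped in GCN4.

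TEC1 and STE12 themselves were not called between the strains. TEC1 lay at 152.1 to 280.4 in M25 and 174.3 to 309.3 in EC1118 (0.026 on the log2 scale, SE 0.16, limma adjusted p = 0.912), and STE12 at 44.2 to 75.7 and 60.8 to 95.7 (0.20, SE 0.14, limma adjusted p = 0.310). MCM1 had -0.14 (limma adjusted p = 0.490). TYE7 had 1.37 (limma adjusted p = 0.122), a value that rests on 1 M25 array in FSJ at 0.8; without that array it was 0.61 (limma adjusted p = 0.025).

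**Figure D4:**
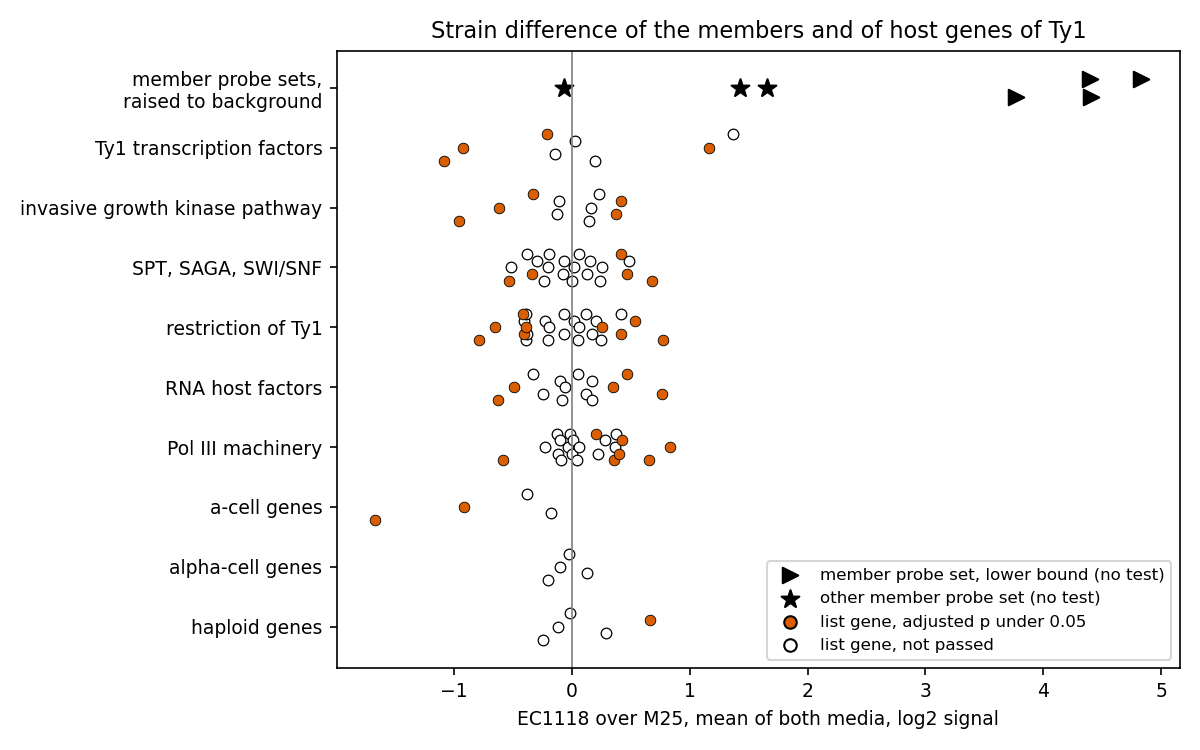
Difference of EC1118 over M25 averaged over the media (log2 signal) for the measured genes of each host list, filled where the limma adjusted p is under 0.05, and in black, with no test, for the 7 kept member probe sets with signals under background raised to it. The list genes lie between -1.67 and 1.37, while the lower bounds of the 3 Gag-Pol members and of 3310_s_at (triangles) lie between 3.77 and 4.83.

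The kinase pathway that activates Tec1 and Ste12 had 2 of 10 genes higher and 3 lower in EC1118 (median 0.017). MSB2, the mucin-like sensor, was lower (-0.62, limma adjusted p = 0.00038), as was DIG2, an inhibitor of Ste12 (-0.96, limma adjusted p = 0.00073), while the kinase gene STE11 was higher (0.42, limma adjusted p = 0.012). STE11 was called in FSJ alone (0.62, limma adjusted p = 0.011) and not in SJ alone (0.21, limma adjusted p = 0.414). Among 21 genes of SPT factors and the SAGA and SWI/SNF complexes, which act on chromatin at Ty1 promoters, 3 were higher and 2 lower (median -0.0027). They included SNF6 of SWI/SNF (-0.53, limma adjusted p = 0.0017), SPT8 of SAGA (0.68, limma adjusted p = 0.0044) and the elongation factor gene SPT5 (0.47, limma adjusted p = 0.0049).

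Of the genes known to restrict Ty1, 26 of 28 were measured, with 4 higher and 5 lower in EC1118 (median -0.067). RTT109, the histone H3 acetyltransferase, was lower at 29.8 to 36.8 against 44.6 to 68 in M25 (-0.79, SE 0.12, limma adjusted p = 0.00033). ELG1, which unloads the replication clamp, and HIR2, of the histone regulatory complex, were lower too (-0.65 and -0.39, limma adjusted p = 0.0036 and 0.0053). FUS3, the mating kinase that lowers Ty1 retrotransposition, was not kept, with signals of 1.4 to 15.9 over the 12 arrays.

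Among 14 genes whose products act on Ty1 RNA or its DNA copy, 3 were higher and 2 lower in EC1118 (median -0.0038). DCP2, the decapping enzyme, was lower (-0.63, limma adjusted p = 0.00047), and the nonsense-mediated decay genes NMD2 and UPF3 were higher (0.47 and 0.77, limma adjusted p = 0.0043 and 0.010). In SJ alone NMD2 and UPF3 were not called (0.18 and 0.37, limma adjusted p = 0.482 and 0.430). In FSJ alone they were (0.76 and 1.16, limma adjusted p = 0.0023 and 0.0082). DBR1, the lariat debranching enzyme, and XRN1, the cytoplasmic exonuclease, were not called (-0.25 and 0.17, limma adjusted p = 0.151 and 0.238).

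The RNA polymerase III machinery, beside whose target genes Ty1 integrates, had 6 of 22 genes higher and 1 lower in EC1118 (median 0.053), and 2 higher after quantile normalization or centring of the arrays. RPO31, the largest subunit, was higher (0.83, limma adjusted p = 0.0010), as were RPC31 (0.66, limma adjusted p = 0.0046) and RPC19 (0.40, limma adjusted p = 0.021), the last not after quantile normalization (adjusted p = 0.057). RPC31 was called in FSJ alone (1.12, limma adjusted p = 0.0018) and not in SJ alone (0.20, limma adjusted p = 0.599). RPC40, a subunit that binds Ty1 integrase, was not called (0.063, limma adjusted p = 0.656). Each of these shares is to be read beside the 23.6% of all genes higher and 15.4% lower.

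Ty1 transcription is repressed in a/α diploids, so genes of the mating types were listed as well. Of 7 a-cell genes 4 were kept, of which 0 were higher and 2 lower in EC1118. MFA2 stood at 241.3 to 484.4 in M25 and 85 to 185.1 in EC1118 (-1.67, limma adjusted p = 0.00012), and AGA2, a subunit of a-agglutinin, close to background at 17.1 to 33.1 and 8.9 to 15.2 (-0.92, limma adjusted p = 0.0055; 0.134 with signals raised to background). STE2, the α-factor receptor gene, BAR1 and ASG7 were not kept, and MFA1 and STE6 were not called (-0.38 and -0.18, limma adjusted p = 0.115 and 0.479).

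None of the 4 α-cell genes was called. MF(ALPHA)1, the α-factor gene, had group means of 597 ± 83.9 and 871 ± 126 in M25 and of 620.1 ± 215 and 922 ± 519 in EC1118 (SJ and FSJ, SD, n = 3), and STE3, the a-factor receptor gene, of 103 ± 5.62, 106 ± 6.73, 87.0 ± 0.306 and 94.5 ± 9.09. Of 9 genes of haploid cells 5 were kept and 1 was higher, RME1, the repressor of meiosis (0.67, limma adjusted p = 0.015). GPA1, STE18, FUS3 and NEJ1 were not kept. The part of mating type or ploidy in the members' levels was not tested.

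With the lipids, averaged over the strains, the host lists had few calls, where 4.63% of genes were higher and 5.82% lower in FSJ. The 1 gene called was higher in each of 5 lists, namely TEA1 (0.40, limma adjusted p = 0.046), MSB2 (0.35, limma adjusted p = 0.046), CAC2 of the chromatin assembly complex (0.58, limma adjusted p = 0.012), RPC40 (0.39, limma adjusted p = 0.030) and HO, the mating-type endonuclease gene (0.52, limma adjusted p = 0.048). All but CAC2 lost the call with the replicate number as a block (limma adjusted p = 0.061, 0.073, 0.053 and 0.082 for TEA1, MSB2, RPC40 and HO), and CAC2 lost it when its probe sets were averaged (limma adjusted p = 0.120). HO was close to background, over it on 0 of 3 M25 arrays and 1 of 3 EC1118 arrays in SJ and on all 6 arrays in FSJ, and with signals raised to background its difference was 0.36. Next by adjusted p and not called were RTT10 (0.30, limma adjusted p = 0.066) among the restriction genes and FAR1, the cell cycle inhibitor of the mating response (-0.68, limma adjusted p = 0.060), among the haploid genes. Within either strain alone 0 genes of any list were called for the lipids, where 3% of all genes were higher and 6.55% lower in M25 and 0.784% higher and 1.32% lower in EC1118.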

How the data were processed

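RNA of 12 cultures, 3 per group, was measured on 1-colour Affymetrix arrays. The deposited values are signal intensities on a linear scale, 9335 probe sets per array, and per the submitters' processing notes MAS5 was the software; neither its version nor a scaling target is stated there, and the arrays' nearly equal trimmed means show that they were scaled alike. Gene names came from the platform annotation: 6504 of 9275 yeast probe sets have 1 symbol, 328 several and 2443 none. Ty families were assigned to frames by hand, and neighbouring genes were taken from the R64 gene table of RefSeq by name only. No sequences were used.

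Here 60 control probe sets were left out, signals were floored at 1 and log2 transformed, and 7349 probe sets above the array's 25th percentile on at least 3 arrays were kept. Group means were fitted with limma 3.58.1 in R 4.3.3 (intensity trend, Benjamini-Hochberg over the 7349, threshold 0.05). A list gene was represented by its brightest probe set. The fit was tested on simulated data, with changes put into probe sets drawn from all 7349. It recovered 64% of changes of 1 log2 unit and 91% of changes of 2 in the lipid comparison in EC1118. These shares are not specific to the members.

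The members and the gene lists were chosen with earlier results of these data known. Named genes were all members, up to 4 other Ty probe sets by mean signal, 3 genes per list by the strain test, 2 by the lipid test, a fixed set of regulators, and the 3 most alike genes per member. Replicate numbers were not used as pairs in the main fit: deviations from group means of same-numbered arrays correlated at -0.16 to 0.14 over 18 pairs. These correlations over all kept probe sets cannot exclude a pairing that acts on some genes. A run with the replicate number as a block was therefore among the alternatives. Precision is limited by the 3 arrays a group.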

Additional observations from a re-analysis of the deposited data

How the results depend on the processing

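For the members no lipid comparison within a strain was called under any alternative run except in M25 without the filter on dim probe sets, where 1 was called, 3097_at of YDR034C-A (1.22 on the log2 scale, limma adjusted p = 0.020), which is under background on all 12 arrays. Averaged over the strains, leaving out 1 array gave 0 to 1 calls: 3849_f_at ranged from 0.50 to 0.86 and was called without EC1118 in SJ replicate 3 (limma adjusted p = 0.045). With the replicate number as a block 0 members were called in each lipid comparison and in the strain dependence, and the block changed no call of a member. In the description of the strains, the fitted EC1118 over M25 differences depended on how signals under background were treated. With log2(signal + 16) in SJ they were 4.51 for YBL005W-B, 4.27 for YHR214C-B, 3.69 for YMR045C, and 4.65, 1.47, 1.34 and -0.72 for 3310_s_at, 3139_f_at, 3849_f_at and 2306_at of YDR034C-A. In FSJ they were 3.75, 3.84 and 3.21, and 4.55 for 3310_s_at, 1.34 for 3849_f_at and -0.53 for 2306_at. With signals raised to background they were in SJ 4.86, 4.43 and 3.90, and 4.80 for 3310_s_at, 1.46 for 3849_f_at and -0.15 for 2306_at, and in FSJ 3.95 for YBL005W-B, 3.63 for YMR045C, 4.86 for 3310_s_at and 0.013 for 2306_at, whose direction turned; its EC1118 signals are all under background. Leaving out 1 array gave 5.85 to 7.49 for 3310_s_at in SJ, the lowest without M25 in SJ replicate 2, the array at 1.

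Over all probe sets, leaving out 1 array gave 298 to 817 calls for the lipids in M25 (643 with all arrays), with 298 without M25 in SJ replicate 3, 412 to 920 averaged over the strains (668), with 412 without the same array, and 2 to 14 for the strain dependence (15). The lipid comparison in EC1118 had 136 calls, and 48 when only its own 6 arrays were fitted. The strain dependence had 9 calls after quantile normalization, 117 with arrays centred on their medians and 4 with the replicate block. Centring moved the median of all probe sets from 0.13 to -0.10 (log2) for EC1118 over M25 in FSJ and from 0.16 to -0.093 for the strain dependence. Host list counts moved with the scaling: restriction genes higher in EC1118 fell from 4 to 1, and SPT, SAGA and SWI/SNF genes lower rose from 2 to 5 or 6, under quantile normalization or centring. The cause of these moves was not tested.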

Other observations

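The Ty3 and Ty4 families, other LTR retrotransposons, showed no common strain pattern. Of 31 probe sets with Ty3 names 23 were kept, with EC1118 above M25 on all arrays in 5 and the reverse in 5, and 19 were over background on all arrays. The 2 Ty3 probe sets 3136_s_at and 3137_s_at were under background on all 6 M25 arrays and at 21.8 to 45.5 and 16.8 to 41.6 in EC1118. Of 30 probe sets with Ty4 names 16 were kept, 5 with EC1118 above and 1 with M25 above, and 12 were under background on all 12 arrays. In M25, 1 Ty3 probe set, 3136_s_at, was lower with the lipids (-1.70 on the log2 scale, limma adjusted p = 0.043), with all 6 of its M25 signals, 0.5 to 7.4, under background.

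YAR009C, a Ty1 frame that is no member, had 3919_f_at at 0.2 to 2.9 in M25 and 46.6 to 157.3 in EC1118, and 3917_f_at at 17.8 to 41.3 and 66 to 147.9. YDR098C-B, another, was bright in both strains in 3442_f_at, at 1698.2 to 2917.2 in M25 and 1141.7 to 1730.4 in EC1118. These values were picked out after they were seen.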
